A study of Mus musculus with 27 samples.

Results

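The cells described here are 1173 aortic myeloid cells of the mouse in which the RNA of Lyz1, Ear2, Retnla, Cd209a and Clec4b1 stood out. They were found by detected genes and not by clustering. A barcode was kept with at least 500 genes, at least 1000 UMIs (unique molecular identifiers, each standing for 1 captured RNA molecule) and at most 15% of UMIs from mitochondrial genes, and it was gated as myeloid with at least 3 UMIs of Lyz2 and Ctss together. A member then had at least 2 of the 5 genes above and more of them than of each of 3 other sets of 5, namely Folr2, Cd163, Cd209f, F13a1 and Cbr2, then Mmp12, Cx3cr1, Ccl3, Ccl4 and Cxcl16, and then Plac8, Ly6c2, Chil3, Ace and Fcgr4. The rule left 1173 members among 14146 gated myeloid cells and 43812 kept cells. The other sets, by the same kind of majority, held 7377, 1489 and 501 cells, called the Folr2, Mmp12 and Plac8 set cells below. Members were thus chosen by the detected UMIs of these genes in the same cells, and every difference between members and other myeloid cells is given as a description with no test.

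The study, whose title names KLF10 and IL-9 in CD4+ T cells and perivascular fibrosis, examined aortas of C57BL/6 mice after 28 days of angiotensin II (Ang II) infusion, which raises blood pressure. Its genotypes are labelled Cre and TKO, and the labels do not define either. The single cells came from digested non-stripped aorta in 2 Cre and 2 TKO libraries made with 10x Genomics 3′ chemistry. Bulk RNA of the same genotypes came from 3 and 3 samples of non-stripped aorta, 4 and 2 of stripped aorta, and 3 and 3 of fibroblasts isolated from aorta (Cre before TKO). In a further experiment TKO mice received IgG (3 non-stripped aortas) or an antibody against IL-9 (2) with the Ang II. All groups received Ang II for 28 days, and no group without it was analysed here. The labels do not say that replicates were separate animals, so the p-values measure only the spread between these samples, which may be technical.

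Blood monocytes that carry the chemokine receptor Ccr2 enter tissues and become macrophages or dendritic cells there. Retnla encodes RELMα, a secreted protein that macrophages make in response to IL-4 and IL-13 through the transcription factor STAT6. Ear2 belongs to the eosinophil-associated ribonucleases, Lyz1 encodes a lysozyme, and Cd209a and Clec4b1 encode C-type lectin receptors, the former known from monocyte-derived dendritic cells. In the peritoneal and pleural cavities, Ccr2-dependent small macrophages that carry Cd226, MHC class II and Retnla are told apart from large Gata6-dependent ones.

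The 4 libraries differed in depth. They held 24216 to 33207 barcodes each, and 14489, 6533, 15365 and 7425 cells were kept in Cre replicate 1, Cre replicate 2, TKO replicate 1 and TKO replicate 2. All values per library below are in that order. Members numbered 367, 216, 354 and 236, and their median depth was 5007, 2243.5, 2203 and 1658.5 UMIs. Cre replicate 1 was thus the deepest library, and it supplied 2092240 member UMIs against 531790, 881342 and 455232 in the others. Between 12 and 68 kept barcodes were shared by any 2 libraries, no member barcode was shared with a member of another library, and 8 members had a barcode that was also kept elsewhere.

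The 5 genes did not mark the members equally. Retnla was detected in 88.9% of them, Lyz1 in 65.5%, Ear2 in 64.8%, Clec4b1 in 36.5% and Cd209a in 21.2% (249 cells). Cd209a therefore stands in the name of the set but was not seen in most of its cells. All 5 genes were found in 19 members, 4 in 187, 3 in 471 and only 2 in 496. The most frequent combination was Lyz1 with Ear2 and Retnla and neither lectin, in 312 members (26.6%), followed by Lyz1 with Retnla in 203 (17.3%) and by Lyz1, Ear2, Retnla and Clec4b1 in 146 (12.4%). The pair Cd209a and Clec4b1 alone qualified 49 members (4.18%).

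Retnla was the gene with the most UMIs among the 5. Members held 9539, 9891, 7959 and 11258 counts per 1000000 UMIs (CPM) of Retnla, and the other gated myeloid cells held 1941, 2011, 620 and 1318. A Retnla UMI was present in 89.1%, 93.98%, 85.3% and 89.4% of members, in 33.8%, 31.6%, 16.7% and 24.3% of the other gated myeloid cells, and in 2.77% to 4.36% of fibroblast-gated cells (cells outside the myeloid gate with at least 10 UMIs of fibroblast genes), a level read as background. Retnla was thus no private gene of the members: they held 35.8%, 40.8%, 52.3% and 50.1% of all Retnla UMIs of kept cells while making up 2.53%, 3.31%, 2.30% and 3.18% of those cells, and the Folr2 set cells averaged 1986 CPM.

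Ear2 and Lyz1 were more restricted. Ear2 stood at 550, 598, 488 and 692 CPM in members and at 21.0, 16.8, 11.3 and 22.6 CPM in the other gated cells, and members held 74.1%, 79.1%, 75.6% and 76.8% of its UMIs. Lyz1 stood at 2475, 1448, 1958 and 2757 CPM in members and at 128, 107, 89.5 and 92.2 CPM in the others, with 68.6%, 64.9%, 65.2% and 77.9% of its UMIs in members. In every library both genes were above the other gated cells by more than the libraries differed from each other. Both are genes of the rule that chose the members, so these gaps and shares were set in part by it. Ear2 belongs to a family of near-identical genes and Lyz1 is a near copy of its neighbour Lyz2, so reads may have been divided between copies in a way the sources used here do not describe.

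The lectin genes were the other 2 genes of the rule. Clec4b1 stood at 152, 169, 182 and 165 CPM in members and at 22.0, 17.9, 19.97 and 24.1 CPM in the others. Cd209a stood at 248, 124, 285 and 220 CPM in members and at 114, 42.3, 136 and 88.0 CPM in the others, so its lowest member value (Cre replicate 2) was within the range of the other cells. Only 19.2%, 20.2%, 13.5% and 18.8% of Cd209a UMIs lay in members, and the Folr2 set cells averaged 114 CPM.

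**Figure D1:**
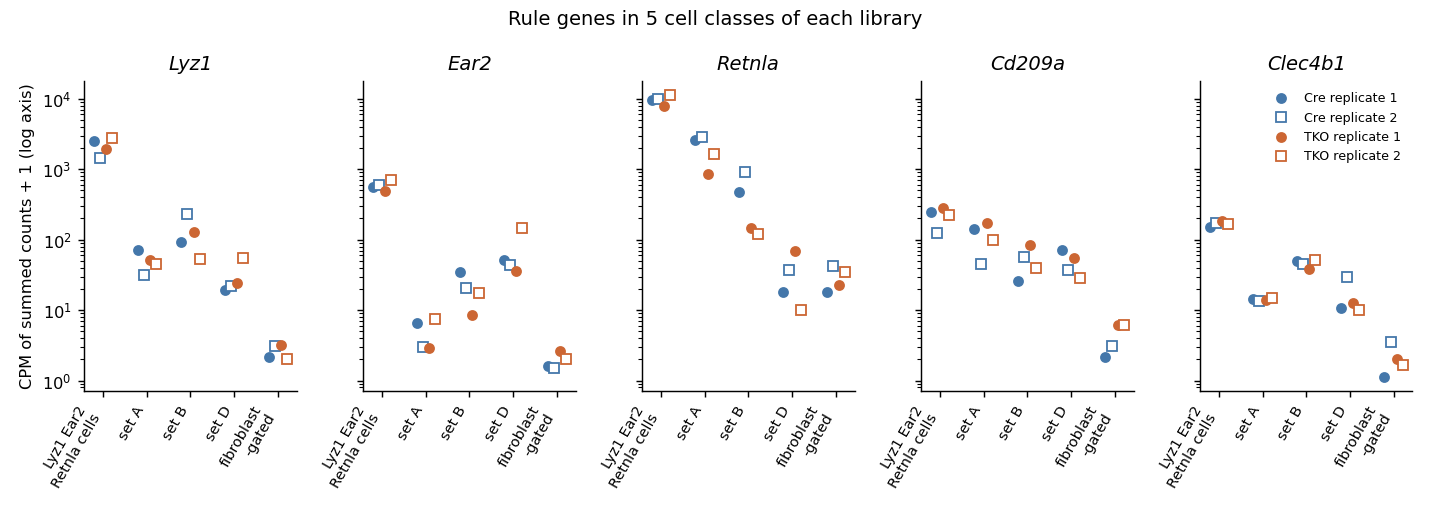
CPM of Lyz1, Ear2, Retnla, Cd209a and Clec4b1 in the summed UMIs of members, of the Folr2, Mmp12 and Plac8 set cells and of fibroblast-gated cells, with 1 point per library on a log axis; the 3 other sets are labelled set A, set B and set D. Lyz1 averages 2160 CPM in members and at most 126 CPM in another class, while Retnla and Cd209a are also seen in Folr2 set cells, at 1986 and 114 CPM on average.

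The 5 genes are protein coding and lie on 5 chromosomes (GRCm38, GENCODE annotation). Lyz1 lies at chr10:117287797-117292868 on the minus strand, Ear2 at chr14:44102654-44103534 on the plus strand, Retnla at chr16:48842551-48844461 on the plus strand, Cd209a at chr8:3743397-3748984 on the minus strand and Clec4b1 at chr6:123049962-123071555 on the plus strand. The stretches just before the starts of the 3 genes seen together most often are printed below from RefSeq (GRCm38.p6), 5′ to 3′ on the strand of the gene. They are chr10:117292869-117293118 for Lyz1, chr14:44102404-44102653 for Ear2 and chr16:48842359-48842550 for Retnla, the last ending where the GENCODE gene begins. Capitals mark matches on either strand to TTC and GAA with any 4 bases between them, the pattern that STAT6 binds, or to the letters TTGCNNAA, a pattern of C/EBP factors of the myeloid lineage.
Lyz1: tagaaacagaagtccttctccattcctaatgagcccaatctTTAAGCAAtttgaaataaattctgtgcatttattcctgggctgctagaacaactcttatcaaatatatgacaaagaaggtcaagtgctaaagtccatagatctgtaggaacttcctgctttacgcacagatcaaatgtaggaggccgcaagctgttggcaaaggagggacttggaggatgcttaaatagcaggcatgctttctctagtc
Ear2: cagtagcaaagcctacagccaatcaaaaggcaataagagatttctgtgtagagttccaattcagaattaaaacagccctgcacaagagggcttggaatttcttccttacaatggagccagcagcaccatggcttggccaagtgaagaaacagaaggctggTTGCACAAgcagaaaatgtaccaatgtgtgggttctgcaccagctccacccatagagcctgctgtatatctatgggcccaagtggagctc
Retnla: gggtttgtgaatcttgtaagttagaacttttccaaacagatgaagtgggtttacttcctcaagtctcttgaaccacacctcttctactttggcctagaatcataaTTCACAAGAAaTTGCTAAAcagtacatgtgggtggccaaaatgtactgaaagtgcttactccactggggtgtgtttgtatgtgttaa

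The Retnla stretch held both patterns with 1 base between them, TTCACAAGAA at 136 to 145 bases and TTGCTAAA at 127 to 134 bases before the RefSeq start. For Retnla that start lies past the end of the printed stretch of 192 bases, which stops at the GENCODE start. Ear2 held the second pattern as TTGCACAA at 83 to 90 bases, and Lyz1 held it as TTAAGCAA, read on the other strand, at 202 to 209 bases. Over the 32851 promoter windows of the RefSeq table, 5.85% held the first pattern, 9.56% the second and 0.609% (200 windows) both. No match to either was found in the windows of Cd209a and Clec4b1. A match describes letters only, and no binding was measured here.

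Members near the edge of the rule held less Retnla, Lyz1 and Ear2 than members with a lead of 2 or more genes. Those held 10256, 10959, 9165 and 12474 CPM of Retnla. Edge members have few set genes by definition, so this difference follows in part from the rule. The members with 2 set genes and a lead of 1 gene (87, 69, 125 and 73 cells) held 5185, 8887, 5538 and 8415 CPM of Retnla, and the gated cells with 2 set genes tied with another set (79, 33, 55 and 35 cells) held 5810, 6392, 4868 and 8344 CPM. Retnla was thus lower outside the edge in 3 libraries and higher in Cre replicate 1. Ear2 stood at 163, 269, 262 and 263 CPM just inside and at 79.0, 201, 155 and 91.2 CPM just outside. Cd226, which the rule did not name, stood at 103, 102, 173 and 87.6 CPM inside and at 39.5, 62.9, 51.7 and 60.8 CPM outside, lower outside in all 4 libraries. With so few cells in these groups, the Cd226 levels were read from few UMIs. In Cre replicate 1, 697 gated cells (14.1%) had at least 2 of the 5 genes but were tied with or led by another set, against 367 members, and these cells held 746 CPM of Folr2, a gene of a competing set. In the other libraries such cells made up 5.60%, 5.11% and 5.99% of gated cells.

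Members were not uniform. A Retnla or Ear2 UMI with neither lectin was seen in 634 members (54.0%), both kinds in 478 (40.8%), and Cd209a or Clec4b1 without Retnla and Ear2 in 61. In the summed UMIs of the 61 lectin-only members, Cd74 (the MHC class II invariant chain) stood at 12236 CPM against 7349 CPM in the 634 Retnla or Ear2 cells. The lectin Mgl2 stood at 956 against 248 CPM, and Clec10a at 174 against 40.5 CPM. Flt3 and Zbtb46, the receptor and transcription factor that mark conventional dendritic cells, stood at 68.7 CPM each against 7.62 and 3.52 CPM. The NK and dendritic cell receptor gene Klrd1 stood at 137 against 7.04 CPM.

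Some macrophage genes were lower in those 61 cells and others were not. Fibronectin (Fn1) stood at 777 CPM against 3184 CPM in the 634 cells, the CSF-1 receptor gene Csf1r at 84.5 against 267 CPM, and the complement gene C1qa at 217 against 572 CPM, although C1qa was higher in the lectin-only cells of TKO replicate 1 (379 against 325 CPM). Apoe was lower in both Cre libraries (49.0 against 1697 CPM and 99.3 against 1160 CPM) and higher in both TKO libraries (1297 against 840 CPM and 2849 against 1531 CPM). Cd68 stood at 148 against 134 CPM and Laptm5 at 1041 against 967 CPM. Lyz1, a gene of the rule, stood at 132 against 2603 CPM. Members without a lectin had to hold at least 2 of Lyz1, Ear2 and Retnla, so this gap was set in part by the split. Ccr2 was present on both sides, at 713 and 835 CPM. The 61 cells numbered 17, 7, 28 and 9 in the 4 libraries and came to 189271 UMIs, so these levels were read from few molecules. Flt3 had 10, 1, 2 and 0 UMIs in them and Zbtb46 had 10, 0, 3 and 0, most of them in Cre replicate 1, while Klrd1 had 9, 6, 9 and 2. The split was made on set genes after their values were seen and is a description.

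Set against all other gated myeloid cells, the members held more RNA of Ccr2 and of MHC class II genes and less of resident macrophage genes. Of 6453 genes with a mean of at least 20 CPM, 77 (1.19%) were at least 2-fold higher and 155 (2.4%) at least 2-fold lower in members in all 4 libraries, on CPM + 10. The median log2 ratio of all 6453 genes was -0.05. The 12 genes that led in each direction by their least extreme library are described next, with folds as ratios of mean CPM over the 4 libraries.

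Lpl, which encodes lipoprotein lipase, stood at 1988, 1228, 1405 and 1037 CPM in members and at 296, 235, 213 and 197 CPM in the others, a 6.02-fold ratio. Cd226, an adhesion receptor gene used to mark small serous cavity macrophages, stood at 209, 143, 183 and 130 CPM against 13.1, 25.5, 18.0 and 15.8 CPM, a 9.17-fold ratio. In both genes the lowest library of the members lay far above the highest of the other cells. A Cd226 UMI was seen in 34.4% of members. Fn1 stood at 3756, 1963, 2550 and 2230 CPM and was 4.42-fold higher. Aldh1a2, the enzyme that makes retinoic acid, was 10.9-fold higher, with 167, 107, 60.1 and 70.3 CPM in members and its higher values in both Cre libraries.

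The other leading genes covered signalling and receptors. Tnip3, an inhibitor of NF-κB signalling, was 7.17-fold higher, and Ltb4r1, the high-affinity leukotriene B4 receptor gene, 10.7-fold. Socs6 of the cytokine signalling suppressors was 5.87-fold higher, the homeodomain-only gene Hopx 5.84-fold and the paired immunoglobulin-like receptor gene Pira2 4.77-fold. Chn2, a GTPase-activating protein gene, was 7.60-fold higher, Skint3 8.60-fold and Upb1, an enzyme of pyrimidine breakdown, 15.8-fold, the last from no more than 3.28 CPM in the other cells.

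The genes lowest in members were those of resident and of inflammatory myeloid cells. Ccl8, a monocyte chemoattractant, was 29.9-fold lower at 7.65, 15.04, 61.3 and 63.7 CPM in members against 706, 555, 1359 and 1795 CPM. Lyve1, the hyaluronan receptor of vessel-associated macrophages, was 19.0-fold lower, the scavenger receptor gene Stab1 15.4-fold, Selenop 9.53-fold, Pf4 6.45-fold and the transcription factor gene Maf 6.36-fold. Ms4a7 was 20.6-fold lower, Hpgds 17.3-fold, Fxyd2 11.3-fold, the endothelin receptor gene Ednrb 8.17-fold and the chemokine gene Ccl12 21.3-fold. S100a9, a neutrophil and monocyte alarmin, was 27.9-fold lower. Most of these genes were highest in Folr2 set cells, at 917 CPM for Lyve1 and 1780 CPM for Ccl8, while S100a9 was highest in Plac8 set cells, at 1014 CPM.

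**Figure D2:**
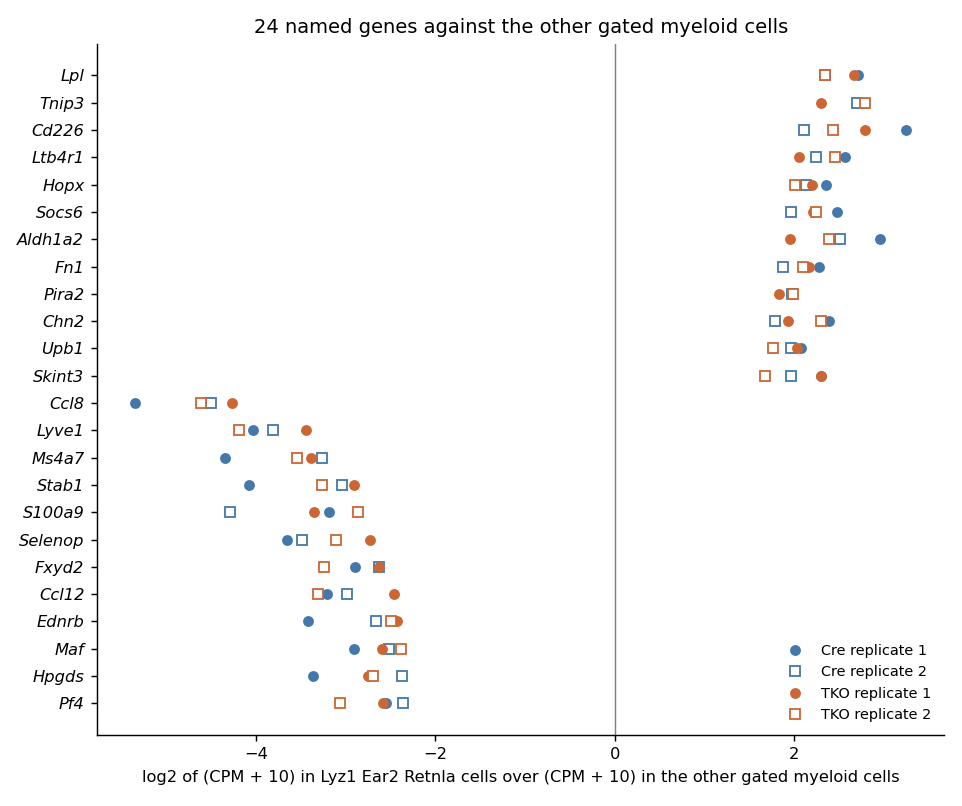
Log2 ratio of CPM + 10 in members over CPM + 10 in the other gated myeloid cells for the 12 genes leading in each direction, with 1 point per library. Every point of the upper 12 genes lies right of 0 and every point of the lower 12 left of it, with Ccl8 at -5.34 to -4.26 and Cd226 at 2.11 to 3.24.

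Gene lists described the same profile by role. Of 14 core macrophage genes, 0 were 2-fold higher and 10 were 2-fold lower in members in all libraries, with a median log2 ratio of -1.54. Apoe stood at 860, 809, 910 and 1439 CPM in members against 9117, 4311, 7135 and 7061 CPM, and Csf1r at 305, 181, 191 and 268 CPM against 985, 527, 661 and 665 CPM. The mannose receptor gene Mrc1 stood at 443 against 1354 CPM on average, C1qa at 396 against 1893 CPM and C1qb at 418 against 1188 CPM. Csf1r was still detected in 42.7% of members.

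Of 13 measured genes of conventional and monocyte-derived dendritic cells, 4 were 2-fold higher (Itgax, Ccr2, Tnip3 and Batf3) and 1 was 2-fold lower (Clec10a), with a median of 0.63. Ccr2 stood at 912, 720, 922 and 767 CPM in members against 265, 157, 297 and 195 CPM, and was detected in 75.1% of them. The Plac8 set cells held 909, 349, 780 and 410 CPM of Ccr2, so that its level in both replicate 1 libraries was close to that of members. The integrin gene Itgax (CD11c) averaged 78.9 against 21.5 CPM, and Batf3 139 against 38.2 CPM. Mgl2, at 408 against 469 CPM, did not stand apart. Flt3, whose protein drives conventional dendritic cells, was near the bottom at 14.3, 3.76, 9.08 and 6.59 CPM in members, with 13.2, 17.9, 13.5 and 7.92 CPM in the others.

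Of 13 MHC class II and costimulation genes, 2 were 2-fold higher (H2-DMa and H2-DMb1, the peptide loading subunits) and 0 lower, with a median of 0.73. H2-DMa averaged 487 against 162 CPM and H2-DMb1 370 against 109 CPM. Cd74 stood at 7947, 8035, 8519 and 10329 CPM in members against 3528, 4356, 4130 and 4790 CPM in the others. H2-Aa averaged 4801 against 2524 CPM, H2-Ab1 4075 against 1894 CPM and H2-Eb1 3475 against 1810 CPM. H2-Ab1 was detected in 96.6% of members. Those levels were not particular to the members among the sets: the Mmp12 set cells averaged 7437 CPM of Cd74.

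The serous cavity lists divided. Of 11 measured genes of small serous cavity macrophages, 4 were higher (Cd226, Itgax, Ccr2 and Fn1) and 3 lower (Vsig4, Mmp9 and Alox5), with a median of 0.72; the chemokine genes Ccl6 and Ccl9 averaged 2400 against 1489 CPM and 925 against 444 CPM. Of 8 measured genes of large serous cavity macrophages, 0 were higher and 1 (Timd4) lower, with a median of -0.29. Gata6, their defining factor, stood at 11.9, 13.2, 27.2 and 19.8 CPM in members, below its mean of 124 CPM in fibroblast-gated cells. It was detected in 4.18% of members.

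Outside Retnla, genes of alternative activation were mostly not high. Of 12 measured genes of that list, 2 were higher (Retnla and Fn1) and 4 lower (Chil3, Mrc1, Clec10a and Igf1). Retnla and Chil3 are genes of the rule, which fixed their directions, and the median log2 ratio of -0.79 includes them. The receptor gene Il4ra stood at 45.4, 30.1, 48.8 and 26.4 CPM against 89.9, 36.7, 67.9 and 59.4 CPM, and the fatty acid transporter gene Cd36 averaged 415 against 845 CPM. Arg1, a classical companion of Retnla, was at 1.43 CPM on average. Of 14 measured genes of IL-4, IL-9, IL-13 and IL-33 receptor signalling, 1 was higher, the GM-CSF receptor gene Csf2ra (346, 231, 258 and 336 CPM against 124, 89.6, 96.8 and 93.9 CPM), and 0 lower. The IL-9 receptor gene Il9r was detected in 6 members (0.512%), at 1.43, 0, 3.40 and 2.20 CPM, against 0.0960% to 0.649% of the other gated cells and 0.0229% to 0.205% of fibroblast-gated cells, so it could not be told from background. In Cre replicate 2, 0 of 216 members had an Il9r UMI, which allows up to 1.39% of cells with one.

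Enzymes of matrix and lipid turnover moved gene by gene. Of 17 matrix and remodelling genes, 3 were higher (Fn1, Mmp19 and the coagulation factor gene F10) and 2 lower (Mmp9 and F13a1, the latter a gene of the rule). Mmp12, the macrophage elastase gene and itself a gene of a competing set, nevertheless averaged 138 CPM in members against 47.4 CPM in the other gated cells and 270 CPM in the Mmp12 set cells. Of 19 lysosome and lipid genes, 2 were higher (Lgals3 and Lpl) and 5 lower (Trem2, Ctsb, Ctsl, Abca1 and Apoe), and Psap averaged 2095 against 1138 CPM. Of 20 chemokine and cytokine genes, 0 were higher and 5 lower (Ccl7, Ccl8, Ccl12, Pf4 and Il10).

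Defining genes of eosinophils, neutrophils and mast cells were at or near 0, while those of lymphocytes were not. Although Ear2 is named after eosinophils, members held 0 UMIs of Epx, Ear1 and Ear6, and the 8 eosinophil genes summed to 10.98 to 74.1 CPM in members against 24.3 to 66.1 CPM in the other gated cells. Of those, Alox15 was the only one above 20 CPM. Ngp and Camp of neutrophils and Ms4a2 of mast cells were also at 0 UMIs. The 8 B cell genes summed to 5483, 2619, 1368 and 806 CPM in members against 3000, 2539, 1794 and 2380 CPM in the other gated cells. Members were thus higher in both Cre libraries and lower in both TKO libraries. The 11 T and NK cell genes summed to 163, 416, 313 and 316 CPM in members against 78.1, 373, 262 and 283 CPM in the other gated cells. Genes of another cell type (at least 2 of the B cell, T and NK cell, endothelial or mast cell genes, or at least 3 of the fibroblast genes) were detected in 794 of 1173 members (67.7%), with fibroblast genes in 460 and B cell genes in 381. By library that share was 48.5%, 74.1%, 82.5% and 69.5% of members, and it was not counted in other cells. No doublet caller was used.

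No difference in the members' share of cells between the genotypes was detectable with 2 libraries each. They were 2.53% (2.28% to 2.80%), 3.31% (2.89% to 3.77%), 2.30% (2.07% to 2.55%) and 3.18% (2.79% to 3.603%) of kept cells, with 95% Clopper-Pearson intervals that cover counting error only. The Cre libraries averaged 2.92% ± 0.547 and the TKO libraries 2.74% ± 0.618 (SD, n = 2 each), a difference of -0.178 percentage points (exact permutation test, two-sided, p = 0.667). Replicate 2 was above replicate 1 in both genotypes, and the genotypes overlapped. Of gated myeloid cells the members were 7.41%, 11.3%, 7.13% and 10.2%, or 9.36% ± 2.75 in Cre and 8.65% ± 2.16 in TKO, a difference of -0.706 points (p = 0.667 by the same exact test). With 2 libraries against 2 this test cannot go below 0.333. With every cell thinned to 1000 UMIs the shares of kept cells were 1.90%, 2.37%, 1.74% and 2.64%. The genotype difference then changed sign to 0.0532 points, and replicate 2 stayed above replicate 1 in both genotypes.

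**Figure D3:**
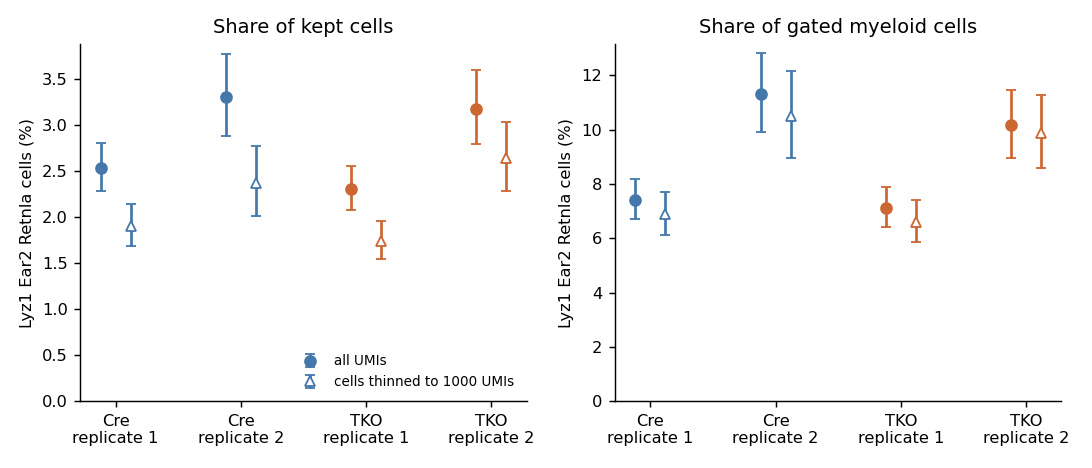
Share of members among kept cells and among gated myeloid cells in each of the 4 libraries, in percent, with 95% Clopper-Pearson intervals and the values after thinning each cell to 1000 UMIs. The replicate 2 libraries lie above the replicate 1 libraries in both genotypes, at 3.31% and 3.18% of kept cells against 2.53% and 2.30%.

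Whether genotype altered the RNA of these cells was tested on UMI counts summed over the members of each library, 2 Cre against 2 TKO, with edgeR's quasi-likelihood test and Benjamini-Hochberg adjustment at 0.05. Of 7350 genes tested, 38 (0.517%) were called, 30 higher in TKO (0.408%) and 8 lower (0.109%). At an unadjusted p under 0.05 there were 387. DESeq2 called 13 genes (12 higher, 1 lower), of which 11 were shared, and leaving out 1 library in the usual order gave 59, 211, 58 and 12 calls. None of the 5 genes of the rule was called (0 at an unadjusted p under 0.05), each with an adjusted p that rounds to 1.00 in edgeR, and log2 fold changes (TKO over Cre) were 0.27 for Lyz1, 0.02 for Ear2, -0.03 for Retnla, 0.41 for Cd209a and 0.10 for Clec4b1. Since every library's members were chosen on these 5 genes, their similar levels are set in part by the rule.

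The genes higher in TKO included 6 of the 10 genes of the fibroblast list. Sfrp4, a secreted antagonist of Wnt signalling, stood at 8.13 and 11.3 CPM in Cre and at 116 and 87.9 CPM in TKO, a log2 fold change of 3.51 ± 0.344 (SE; edgeR adjusted p = 0.000429). Aspn, a small leucine-rich proteoglycan gene, stood at 10.99 and 20.7 CPM in Cre and at 138 and 96.7 CPM in TKO (3.098, edgeR adjusted p = 0.00176). Lum, another of that family, rose by 2.56 and Dcn by 1.79 on the log2 scale, and the collagen I genes Col1a1 and Col1a2 by 2.10 and 1.87. In each of these genes both TKO libraries lay above both Cre libraries, which held for all 38 called genes and for 28.9% of all genes tested. Mmp3, a stromelysin gene, rose by 2.56 and Ecrg4, which encodes a secreted peptide precursor, by 4.06. Cthrc1, a collagen repeat gene, was at 0 UMIs in both Cre libraries and at least 15.1-fold higher in TKO, against a floor of 3 counts over the Cre group.

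These are also genes of fibroblasts, and the summed fibroblast list stood higher in both TKO libraries in every class of cells read. Of the 30 genes higher in TKO, 28 stood higher in fibroblast-gated cells than in members (44.2% of all genes tested did). Within fibroblast-gated cells 28 of the 30 were also higher in TKO, beside 4187 of all 7350 genes tested. The 10 fibroblast list genes were all positive in members, with 6 called (Col3a1, Col1a2, Mfap5, Dcn, Lum and Col1a1) and a median log2 fold change of 1.65, beside -0.01 over all genes tested. Their summed level was 1765, 1700, 5400 and 5452 CPM in members, 2335, 2647, 6975 and 5441 CPM in the other gated myeloid cells, and 29070 to 39370 CPM in fibroblast-gated cells, where both TKO libraries were also the higher ones. At least 3 fibroblast genes were detected in 82, 42, 243 and 93 members. Haemoglobin and Alas2 RNA of red cells was also higher in both TKO libraries, at 8957, 10660, 24710 and 19640 CPM summed in members. With members that carried other cell types' genes left out, 0 genes were called by edgeR (1800 tested, 59 at an unadjusted p under 0.05), with Dcn at 3.01 and Col1a2 at 1.69 there; cells were left out by genes that include the fibroblast list itself. The part of RNA from other cells in the calls was not tested.

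Ccl8 and Angpt1 were the called genes higher in TKO that fibroblast-gated cells did not hold at a higher level than members. Ccl8 stood at 7.65 and 15.04 CPM in Cre and at 61.3 and 63.7 CPM in TKO (2.68 ± 0.407 SE, edgeR adjusted p = 0.00873). The other gated myeloid cells held far more of it, 706 and 555 CPM in Cre and 1359 and 1795 CPM in TKO, where its difference of 1.29 was not called. Angpt1, an endothelial growth factor gene, rested on 1, 1, 20 and 17 UMIs. Both fell short of the threshold in DESeq2 (adjusted p = 0.0648 and 0.0527).

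The 8 genes lower in TKO were of 3 kinds. The digestive enzyme genes Ctrb1, Pnlip, Try4 and Rnase1, which are expressed in pancreas, were at 0 UMIs in TKO members and at least 154-fold, 126-fold, 61.5-fold and 31.4-fold lower than in Cre, and Prss2 had 427, 8, 1 and 0 UMIs. They lay mostly in Cre replicate 1, where 1 cell with 11252 UMIs held 28.3% to 37.9% of the UMIs of each. In fibroblast-gated cells Ctrb1 stood at 292, 85.1, 0 and 0 CPM and in other gated cells at 384, 29.4, 0 and 0.283 CPM, so they were present in the Cre libraries in each class of cells read. DESeq2 called none of the 5.

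Ighm, the immunoglobulin μ heavy chain gene of B cells, stood at 5075, 1706, 774 and 226 CPM in members (-2.77, edgeR adjusted p = 0.0272), and 1 cell of Cre replicate 1 with 30652 UMIs held 35.1% of its UMIs there. Slpi, a secreted inhibitor of leukocyte proteases, stood at 206 and 239 CPM in Cre and at 36.3 and 65.9 CPM in TKO (-2.19 ± 0.326 SE, edgeR adjusted p = 0.00873). A single cell held 28.8%, 63.8%, 75% and 86.7% of its UMIs in the 4 libraries, and few members (22, 10, 8 and 4) had any. Prg4, the lubricant proteoglycan gene, stood at 247 and 222 CPM in Cre and at 107 and 54.9 CPM in TKO (-1.52, edgeR adjusted p = 0.0272), and its direction turned to 0.30 when cells were thinned to 1000 UMIs.

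**Figure D4:**
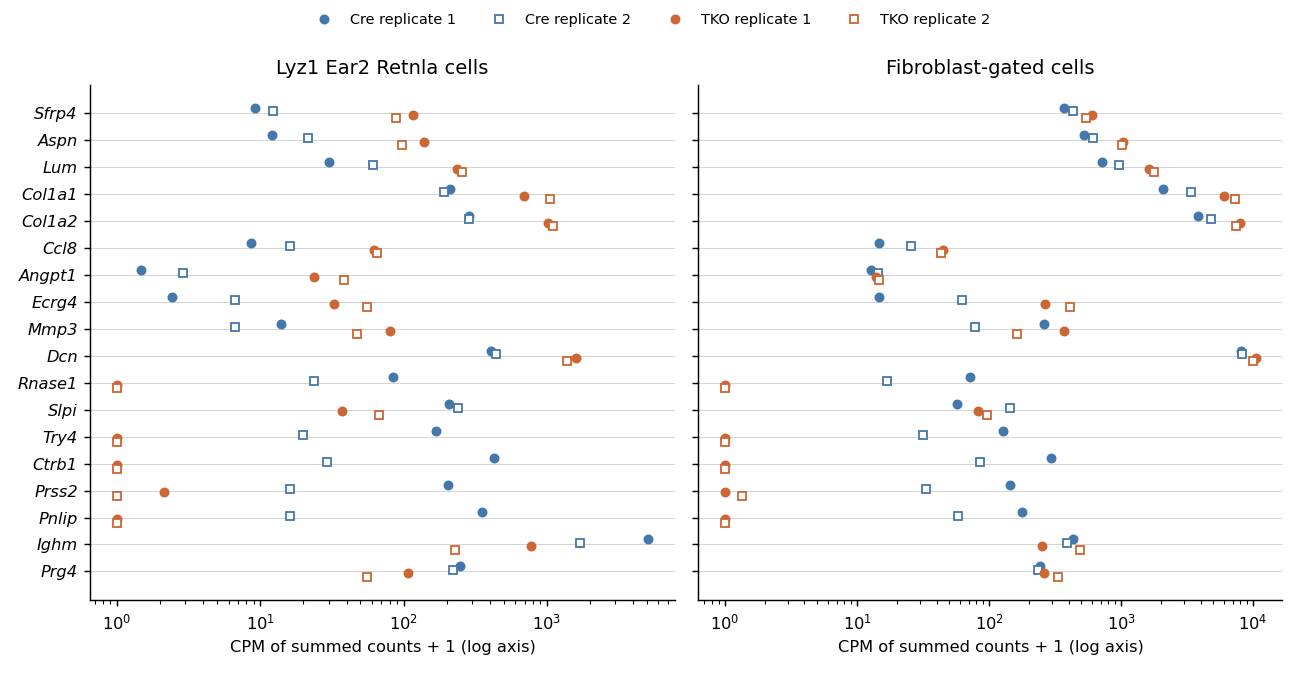
CPM + 1 of the 18 named genes called between TKO and Cre, on a log axis with 1 point per library, in members and in fibroblast-gated cells. In members both TKO points lie beyond both Cre points for every gene, and apart from Ccl8 and Angpt1 the named genes higher in TKO stand higher on average in fibroblast-gated cells, such as Dcn at 8140 to 10490 CPM.

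Beyond these genes no list of myeloid function held a call other than Ccl8. By edgeR, of 14 tested MHC class II genes 9 were positive and 0 called (1 at an unadjusted p under 0.05), with a median log2 fold change of 0.18 beside -0.01 for all genes, and of 13 tested core macrophage genes 3 were positive and 0 called (0 unadjusted), with a median of -0.17. Of 13 alternative activation genes 3 were positive and 0 called (1 unadjusted, median -0.06), and of 15 receptor signalling genes 4 were positive and 0 called (0 unadjusted, median -0.10). All 14 proliferation genes were negative with a median of -0.80 and 0 called (4 unadjusted), among them Mki67 at 114, 69.6, 40.8 and 59.3 CPM (-0.97, edgeR adjusted p = 0.430). The 17 interferon response genes included 13 positive and 0 called (2 unadjusted, median 0.30). Klf10, the gene named in the series title, stood at 65.0 and 48.9 CPM in Cre and at 108 and 90.1 CPM in TKO members (0.76 ± 0.272 SE, edgeR adjusted p = 0.526), without overlap and not called. The labels do not say in which cells a gene was altered.

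A test of the difference between members and other gated myeloid cells in their genotype effect called 8 of 12041 genes (0.0664%). Leaving out 1 library, in the usual order, gave 11, 53, 19 and 42 calls. Retnla itself was among the 8. Its TKO over Cre difference was -1.05 in the other gated cells (1941 and 2011 CPM in Cre, 620 and 1318 CPM in TKO, not called there) and -0.03 in members, and the difference of the differences was 1.10 ± 0.151 (SE; edgeR adjusted p = 0.00591). As the rule sorts cells on Retnla, this difference is not independent of how cells were chosen, and it was no longer called without TKO replicate 1 (0.77, adjusted p = 0.0904). Igf1, a growth factor gene, stood at 72.2, 28.2, 151 and 141 CPM in members and at 447, 254, 441 and 366 CPM in the others (1.30, edgeR adjusted p = 0.0184). Igf1 is also high in fibroblast-gated cells, at 651 CPM on average, and the part of that RNA was not tested. Also called were Slpi and Sfrp4, both described above, Vcam1, and the immunoglobulin genes Igha and Ighg1.

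The 5 marker genes were last read in bulk RNA, which did not enter the rule. In bulk, fewer such cells, less RNA per cell and RNA of cells outside the set cannot be told apart. Of the UMIs of kept single cells, members held 13.5% to 20.2% for Cd209a, 35.8% to 52.3% for Retnla and 40.6% to 50% for Clec4b1. For Lyz1 the part was 64.9% to 77.9% and for Ear2 74.1% to 79.1%. In non-stripped aorta (0.119% of genes called between TKO and Cre) Clec4b1 was below the filter and was not tested by edgeR. Of the other marker genes 0 was called by edgeR and 1 had an unadjusted p under 0.05. Lyz1 came closest, at 3.85, 4.65 and 4.88 CPM in Cre and at 5.59, 7.25 and 16.5 CPM in TKO (1.12 ± 0.384 SE, edgeR adjusted p = 0.185; DESeq2 adjusted p = 0.0374). Without TKO replicate 3 its log2 fold change was 0.50. In stripped aorta (0.024% called) 0 was called by edgeR and 1 had an unadjusted p under 0.05, again Lyz1, which stood at 18.7, 9.72, 10.6 and 15.3 CPM in Cre and at 23.1 and 44.4 CPM in TKO (1.30, edgeR adjusted p = 0.211; DESeq2 adjusted p = 0.00636), or 0.76 without TKO replicate 2. In both tissues the TKO values of Lyz1 lay above all Cre values, and how many of all genes separated like this was not counted. Retnla overlapped in non-stripped aorta, at 20.9, 20.2 and 28.9 CPM against 18.7, 20.8 and 34.9 CPM.

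Isolated aortic fibroblasts (0.0638% called) held little of the 5 genes: Retnla was at 0.511 to 0.890 CPM, Ear2, Cd209a and Clec4b1 were below the filter, and edgeR and DESeq2 called 0, with 0 at an unadjusted p under 0.05 in edgeR. Lyz1 was an exception, at 3.68 to 10.4 CPM, and these preparations also held Lyz2 at means of 1034 CPM in Cre and 442 CPM in TKO.

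In TKO aorta given the anti-IL-9 antibody, edgeR called Ear2 and Clec4b1 lower than with IgG, and DESeq2 called Ear2, Cd209a and Lyz1 lower. Ear2 stood at 3.83, 4.11 and 3.26 CPM with IgG and at 1.98 and 1.16 CPM with anti-IL-9 (-1.33 ± 0.302 SE, edgeR adjusted p = 0.0157; DESeq2 adjusted p = 0.00198). Clec4b1 stood at 0.959, 1.401 and 0.931 CPM with IgG and at 0.484 and 0.264 CPM with anti-IL-9 (-1.61 ± 0.437 SE, edgeR adjusted p = 0.0300; DESeq2 adjusted p = 0.0525). All values with the antibody lay below all with IgG in both genes, and the share of all genes separated like this was not counted. The other 3 were not called by edgeR: Cd209a stood at 5.43, 6.54 and 1.51 CPM against 1.67 and 0.633 CPM (-2.02, edgeR adjusted p = 0.0529; DESeq2 adjusted p = 0.00522), Lyz1 at 8.36, 27.3 and 15.02 CPM against 11.6 and 4.49 CPM (-1.17, edgeR adjusted p = 0.136; DESeq2 adjusted p = 0.0451), and Retnla at 37.4, 35.6 and 41.3 CPM against 42.4 and 17.2 CPM (-0.46, edgeR adjusted p = 0.281; DESeq2 adjusted p = 0.231).

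By edgeR this comparison called 32.1% of all 16463 genes, 11% lower and 21% higher. The 2 of 5 genes that edgeR called lower thus stand beside a background in which 11% of genes were. The share of all genes called by DESeq2 is not given here for any bulk comparison, so its marker calls have no such background. General myeloid RNA was lower too: Lyz2 stood at 260, 507 and 281 CPM with IgG and at 140 and 63.5 CPM with anti-IL-9 (-1.88, edgeR adjusted p = 0.0109), and Ccr2 fell by 1.94 on the log2 scale (edgeR adjusted p = 0.0420). Other genes that led in members were negative but not called by edgeR. They were Fn1 (-1.13, edgeR adjusted p = 0.114), Ltb4r1 (-1.30, 0.0748), Aldh1a2 (-0.72, 0.396), Cd226 (-0.62, 0.483) and Lpl (-0.40, 0.440). Whether Ear2 and Clec4b1 fell by more than myeloid RNA in general was not tested. With a library left out the directions held and some calls did not: without IgG replicate 2 edgeR called 1 of the 5 genes, and without anti-IL-9 replicate 2, which leaves 1 antibody library assumed to vary like the IgG libraries, it called 0 with 1 at an unadjusted p under 0.05 (Ear2 -1.09, edgeR adjusted p = 0.0580; Clec4b1 -1.35, edgeR adjusted p = 0.132).

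**Figure D5:**
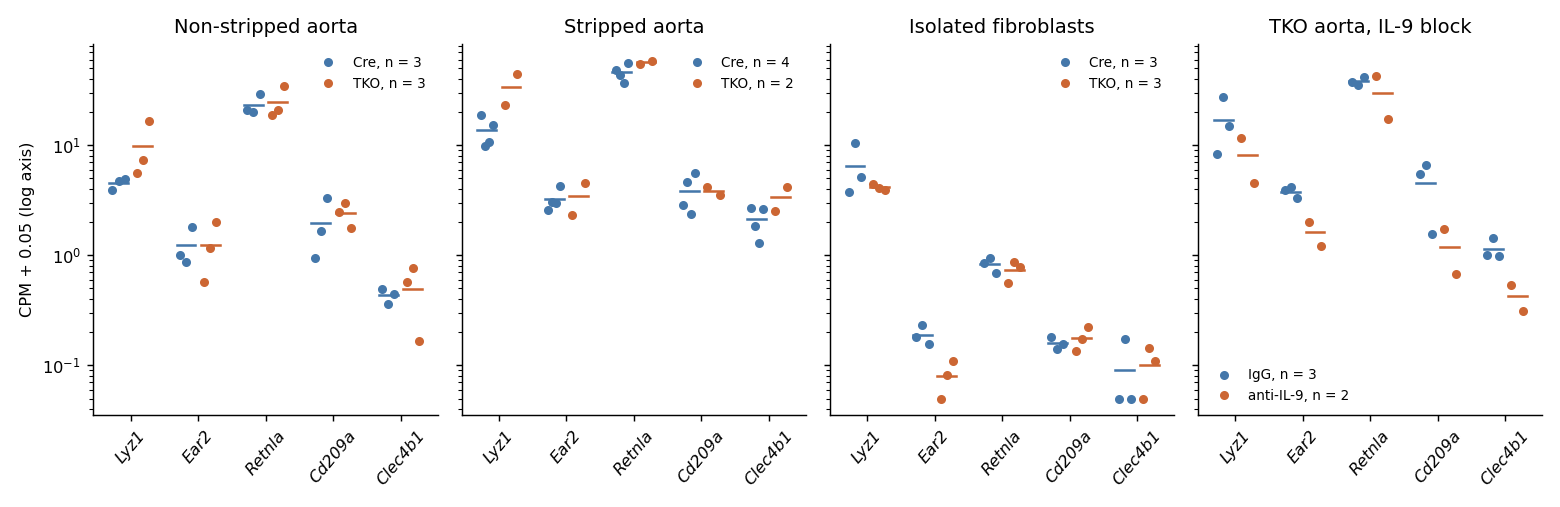
CPM of Lyz1, Ear2, Retnla, Cd209a and Clec4b1 in every bulk library, on a log axis, for the 4 bulk comparisons. With anti-IL-9 both Ear2 points (1.98 and 1.16 CPM) lie below the 3 IgG points, while in the genotype comparisons Lyz1 is the gene whose TKO points lie above the Cre points in non-stripped and stripped aorta. The share of all bulk genes separated like this was not counted.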

How the data were processed

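The deposited single-cell matrices give counts of UMIs for each gene in each barcode, and the bulk tables hold raw counts of reads per gene symbol, deposited by the authors as whole numbers. For the bulk data the submitters' processing notes list Trimmomatic 0.36, STAR 2.5.2b, Subread 1.5.2, featureCounts and GRCm38, with no role, order or strand setting. Without a stated strand setting, overlapping genes cannot be told apart. The members, gene lists and the rule for named genes were chosen with earlier results of these data known.

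Cells were filtered and assigned as described above, with Python 3.11.15, and UMIs were summed over the members of each library. Genes passed filterByExpr (minimum count 10), were scaled by TMM, and were tested in edgeR 4.0.16 (R 4.3.3). DESeq2 1.42.0 was an alternative. CPM are counts over the summed UMIs or library total. Bulk totals ran from 17179257 to 38633457 counts. Ratios between classes used CPM + 10 and at least 20 CPM. The interaction was fitted on members and other gated cells of the same libraries. The test was checked on simulated counts for TKO against Cre in members: of 7370 genes tested it recovered 91 of 93 changed 4-fold and 28 of 97 changed 2-fold, with 14 false calls. The simulation gave every gene the same fixed dispersion and, apart from the changed genes, every library the same expected proportions. These figures therefore need not hold for the real counts.

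Named genes were the 5 markers, up to 10 called genes per direction and contrast whose groups did not overlap (5 for the interaction), 12 per direction for members against other cells, and the 4 highest of each list described, besides a few genes fixed by name. Other genes printed, such as those a small count covers, were chosen after their values were seen. Genes with predicted, ribosomal or mitochondrial names were left out, and 1 gene called in the interaction is not reported here. In the bulk tables, 1 column of per-sample values mapped to no label and was not used. Stripped samples carry the word nonstripped in their titles and stripped in their other labels, and the latter was followed.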

Additional observations from a re-analysis of the deposited data

Results flagged for a closer look

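The genotype effect (TKO over Cre, log2) differed between members and the other gated myeloid cells for 8 genes by edgeR's quasi-likelihood interaction test. Values are given as the effect in members minus that in the others. Igha differed by 5.97 (adjusted p = 6.73e-06): members held 5.26, 11.3, 1229 and 13.2 CPM in Cre replicates 1 and 2 and TKO replicates 1 and 2, and 1 cell of TKO replicate 1 held 97.4% of the UMIs there. Without TKO replicate 1 its value was 3.67. Ighg1 differed by -5.04 (adjusted p = 0.000618), with 1 cell of Cre replicate 2 holding 72.7% of that library's UMIs, and by -0.69 without that library. Both are immunoglobulin heavy chain genes of B cells and plasma cells.

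Retnla differed by 1.10, Slpi by -1.52, Vcam1 by 2.13, Igf1 by 1.30 and Sfrp4 by 1.98, with edgeR adjusted p-values of 0.00591, 0.00912, 0.0184, 0.0184 and 0.0198. Retnla is a gene of the rule that sorted the cells, so its value is not independent of how members were chosen. Vcam1, an adhesion molecule gene, stood at 7.17, 13.2, 48.8 and 26.4 CPM in members and at 67.6, 87.4, 92.4 and 56.9 CPM in the others. Without Cre replicate 1 it was not called (1.78, adjusted p = 0.601), nor was Sfrp4 (1.81, adjusted p = 0.776). The part of RNA from other cells in these differences was not tested.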

How the results depend on the processing

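The 38 genes called between TKO and Cre in members became 11 with at least 3 set genes, 0 without members carrying other cell types' genes (1800 genes tested), 10 with cells thinned to 1000 UMIs, 13 with DESeq2, 58 without TMM and 143 without a filter. Leaving out a library gave 12 to 211 (12 without TKO replicate 2, 211 without Cre replicate 2). The 3 remaining settings gave 30 to 50. A fit with the replicate block called 124 genes, all 38 included. The numbers share a correlation of only 0.114 across 7350 genes over 2 pairs, so they were not taken to pair the samples. The 8 interaction calls became 48 without a filter and 4 against Folr2 set cells alone, and 11 to 53 with a library left out. Of 221 refits of the 18 named genes, 178 kept direction and call, 42 kept direction but not the call, and 1 turned, Prg4 thinned to 1000 UMIs (0.30). For the interaction genes 44 of 56 refits kept both, and for the bulk genes 42 of 58.

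The genotype difference in the share of kept cells (-0.178 points) turned to 0.0532 after thinning, and at most 10% mitochondrial UMIs gave -0.812, leaving out members with other cell types' genes gave -0.394, and leaving out a library gave -0.616 to 0.259 (0.208 without Cre replicate 2, 0.259 without TKO replicate 1). That in the share of gated cells (-0.706) became -3.18 with at most 10% mitochondrial UMIs and -2.65 to 1.24 with a library left out, with 1.24 and 0.818 without the same libraries. In bulk, DESeq2 called 1 marker gene (Lyz1) in non-stripped and 1 in stripped aorta. For anti-IL-9 it called 3 (Ear2, Cd209a and Lyz1), 1 of them shared with the 2 of edgeR, and the edgeR count was 5 without a filter and 0 to 3 with a library left out. Only 2 libraries a group, and 455232 UMIs of members in the shallowest, limit what could be detected.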
